A study of Mus musculus with 12 samples.

Results

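Collagens are the main fibrous proteins of connective tissue, and each collagen chain is encoded by a gene of its own. All genes whose symbol is Col, a type number, the letter a and a chain number were taken, which gave 44 chain genes of the 25094 genes listed. They comprised 11 fibrillar chains, 6 basement membrane chains of type IV, 9 FACIT chains (fibril-associated collagens with interrupted helices) and 18 others. RNA came from the gastrocnemius, a calf muscle, of C57BL/6 and BALB/c mice, which are inbred strains; all animals were wild-type males. In all groups the right sciatic nerve had been cut and its ends turned away, and the muscle was taken 2 weeks later. The 4 groups were right (denervated) and left (called healthy) legs of C57BL/6 and right and left legs of BALB/c, with 3 libraries each. Ages are not given, and no label says whether a left leg had a sham operation, which the protocol also describes. A left leg belongs to an animal that lost the nerve on the other side, so it is not the muscle of an unoperated mouse. No label ties each library to an animal of its own, so a p-value here weighs a change against the spread of 3 libraries that may be technical.

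Collagen chains wind around each other in a helix, and most are folded in the endoplasmic reticulum, secreted, trimmed and cross-linked outside the cell. Types I, III and V form the banded fibrils between muscle fibres, type IV forms the sheet of the basement membrane around each fibre, and type VI forms beaded filaments between fibre and fibrils. Several collagens with a membrane-spanning stretch, such as types XIII and XXV, act in motor innervation in mice. Most collagen messenger RNA of muscle is made by fibroblasts and fibro-adipogenic progenitors rather than by the fibres.

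Promoter windows of 4 chains are shown for reference, and no part of them in the changes was tested. Col10a1 changed most in BALB/c, and Col1a2 and Col3a1 moved differently there. Col4a1 and Col4a2 share 1 promoter, and their changes had the same sign in each strain. The RefSeq table of the build GRCm38.p6 held a window for 35 of the 44 chains. Each window runs from 250 bases before to 50 bases after the listed start, 5′ to 3′ on the gene's strand. The windows lie at chr10:34389731-34390030, plus strand (Col10a1), chr1:45311288-45311587, plus strand (Col3a1), chr6:4505368-4505667, plus strand (Col1a2) and chr8:11312555-11312854, plus strand (Col4a2). Capitals mark TATAAA in the first and second window, CCAAT or its reverse complement in the third, and CCAAT and GGGCGG or their reverse complements in the fourth.
Col10a1: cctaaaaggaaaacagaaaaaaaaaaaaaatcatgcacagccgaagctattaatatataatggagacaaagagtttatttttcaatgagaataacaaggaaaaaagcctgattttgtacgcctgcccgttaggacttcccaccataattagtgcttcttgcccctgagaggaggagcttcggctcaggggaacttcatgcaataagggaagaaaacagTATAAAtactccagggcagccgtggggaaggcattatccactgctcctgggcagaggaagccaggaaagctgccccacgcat
Col3a1: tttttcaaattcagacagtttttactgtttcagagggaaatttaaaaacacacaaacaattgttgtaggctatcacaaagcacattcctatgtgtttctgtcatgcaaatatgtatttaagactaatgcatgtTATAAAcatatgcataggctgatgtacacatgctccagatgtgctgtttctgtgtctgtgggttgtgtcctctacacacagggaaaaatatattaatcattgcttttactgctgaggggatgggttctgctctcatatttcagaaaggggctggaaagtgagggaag
Col1a2: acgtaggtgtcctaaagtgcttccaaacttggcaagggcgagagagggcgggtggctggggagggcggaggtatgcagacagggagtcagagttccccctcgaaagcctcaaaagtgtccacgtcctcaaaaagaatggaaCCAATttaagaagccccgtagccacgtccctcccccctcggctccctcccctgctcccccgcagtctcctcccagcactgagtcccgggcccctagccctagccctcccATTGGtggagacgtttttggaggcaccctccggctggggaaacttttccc
Col4a2: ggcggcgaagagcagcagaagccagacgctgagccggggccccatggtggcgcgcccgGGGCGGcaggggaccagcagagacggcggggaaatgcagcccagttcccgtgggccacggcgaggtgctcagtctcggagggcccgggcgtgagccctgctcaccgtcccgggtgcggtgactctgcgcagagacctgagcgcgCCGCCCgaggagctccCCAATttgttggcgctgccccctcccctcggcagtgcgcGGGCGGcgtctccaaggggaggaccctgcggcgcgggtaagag
In the Col10a1 window TATAAA began at position -32 from the start, and in the Col3a1 window it began at position -117. CCAAT of the Col4a2 window began at position -32, and the listed starts of Col4a1 and Col4a2, on opposite strands, were 21 bases apart. Searched on both strands with overlaps between motifs allowed, TATAAA occurred in 13.6% of 32851 windows of all genes and in 5 of the 38 windows of chains. CCAAT occurred in 37.4% of all windows and in 13 of the 38, and the GC box GGGCGG in 35.7% and in 23 of the 38. The E box CANNTG was in 72.3% of all windows and in 20 of the 38, the AP-1 motif TGANTCA in 7.81% and 1, the Runx motif TGTGGT in 16.8% and 3, and the loosened MEF2 motif (CTA, any 4 bases, TAG) in 3.69% and 5. Some chains have 2 windows, and a match describes letters in the window, not a bound site.

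Values are RPKM, reads scaled for transcript length and library total, which the authors deposited in 1 table per strain. Low values move in steps of 1 read, and from these steps the total that scaled each library was worked out as 18132600 to 19282900 reads. The tables were normalized separately, so legs were tested within a strain and levels were not tested between strains. A change is the mean of right legs less the mean of left legs, given with its SE as log2(RPKM + 0.5), a scale that understates changes of low genes. A chain was called at a limma adjusted p under 0.05 over all tested genes. The median tested gene was 0.52 higher in right C57BL/6 legs and 0.38 higher in right BALB/c legs, so relative changes have that median subtracted, and rescaled values use median-of-ratios factors. Summed RPKM of 7 haemoglobin and other erythroid genes was 15207, 34040 and 532 in right BALB/c legs, 1674, 2426 and 331 in left BALB/c legs, and between 205 and 443 in C57BL/6. Right BALB/c libraries 1 and 2 therefore stood apart, and called BALB/c changes are also given with library 3 as the only right leg; the part of blood in the results was not tested otherwise. In that fit the lone library is assumed to vary like the others, and fewer calls follow from fewer samples. All left BALB/c libraries stayed in it, at 1674, 2426 and 331 RPKM of these genes against 532 in right library 3. Blood was therefore not matched between the legs. All 8 muscle fibre markers were high, with sums of 55625 to 125147 RPKM over the 12 libraries. Reads were counted without strand, and positions are in mm9 as the files list them.

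Collagen transcripts took different shares in each group. Col3a1, Col1a2 and Col1a1 were the 3 highest chains in right C57BL/6 legs, at 56.6 ± 25.3, 43.9 ± 16.8 and 42.0 ± 14.1 RPKM (SD, n = 3). In left C57BL/6 legs Col4a1 and Col4a2 led instead, at 15.2 ± 1.50 and 12.01 ± 1.04 RPKM. Col1a2 and Col1a1 led in both BALB/c groups, and Col10a1 was at 66.9 ± 27.9 RPKM in right BALB/c legs. The chains of types I and III together made 48.8% of the summed collagen RPKM in right and 29.0% in left C57BL/6 legs, against 49.9% in right and 64.7% in left BALB/c legs. Summed over all 44 chains the level was 209.7, 384 and 283 RPKM in right and 108, 118 and 94.2 RPKM in left C57BL/6 legs. In BALB/c the sum was 598, 496 and 552 RPKM in right and 478, 709 and 650.1 RPKM in left legs. The summed level was thus higher in every right than in every left C57BL/6 leg, while the legs of BALB/c overlapped. In bulk tissue, fewer cells of a type and less RNA per cell cannot be told apart.

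**Figure D1:**
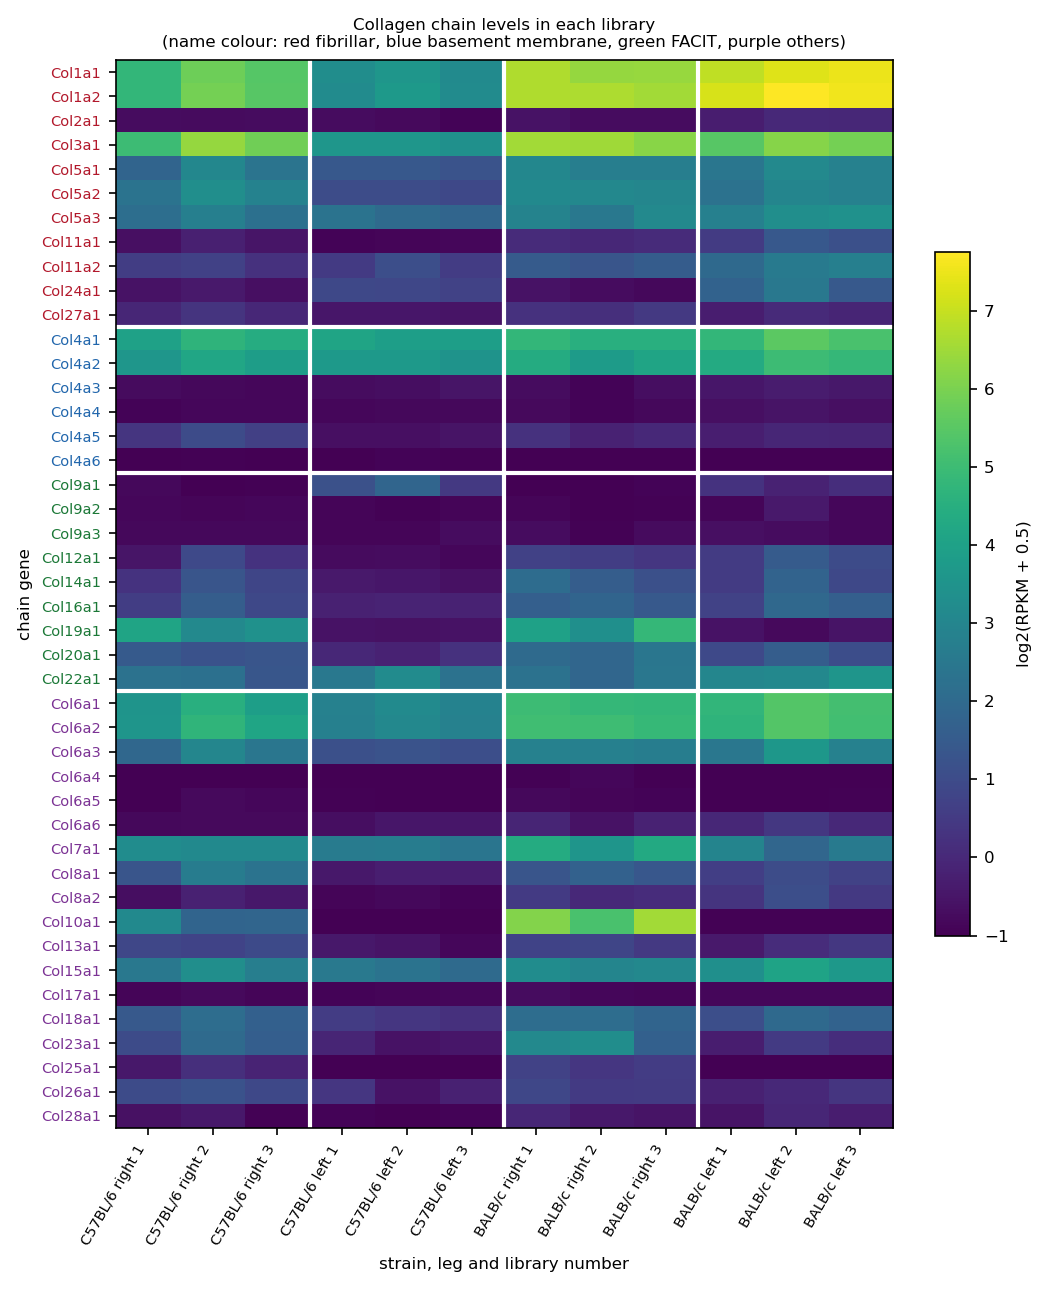
Heat map of log2(RPKM + 0.5) for the 44 collagen chain genes (rows, grouped by class) in the 12 libraries (columns, right before left within each strain). Col1a1, Col1a2, Col3a1, Col4a1, Col4a2, Col6a1 and Col6a2 are bright in all libraries, and Col10a1 and Col19a1 are bright in the right legs.

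In C57BL/6 most tested collagen chains were higher in the denervated leg. Of 35 chains tested, 25 rose, 2 fell and 8 were not called, with a median log2 change of 1.06 (relative 0.54). Among all 14551 genes tested, 63.6% rose and 8.56% fell, so 71.4% of the chains against 63.6% of all genes is close to the background. After rescaling 17 chains rose and 6 fell, beside 28.2% and 26.4% of all genes. In 25 chains every right leg was above every left leg and in 5 it was below, against 66.2% and 9.57% of all tested genes. The largest rises were those of Col19a1 and Col10a1, and the 2 falls were those of Col9a1 and Col24a1. By class, 7 of 10 fibrillar chains rose and 1 fell, 1 of 4 basement membrane chains rose, 5 of 7 FACIT chains rose and 1 fell, and 12 of 14 others rose.

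In BALB/c collagen chains were split between both directions. Of 38 chains tested, 9 rose, 11 fell and 18 were not called, with a median log2 change of -0.14 (relative -0.52). Among all 14819 genes tested, 42.5% rose and 7.67% fell, while 23.7% of the chains rose and 28.9% fell. After rescaling 5 chains rose and 20 fell, beside 21.8% and 19.0% of all genes. In 12 chains every right leg was above every left leg and in 12 it was below, against 48.1% and 10.4% of all tested genes. By class, 1 of 11 fibrillar chains rose and 6 fell, 2 of 5 basement membrane chains fell, 2 of 7 FACIT chains rose and 2 fell, and 6 of 15 others rose and 1 fell. With right library 3 as the only right leg, 4 chains rose and 2 fell. The other 14 of the 20 calls were lost, with values beside each chain. The median change was 0.08 without left BALB/c library 2 and -0.27 without left BALB/c library 1.

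**Figure D2:**
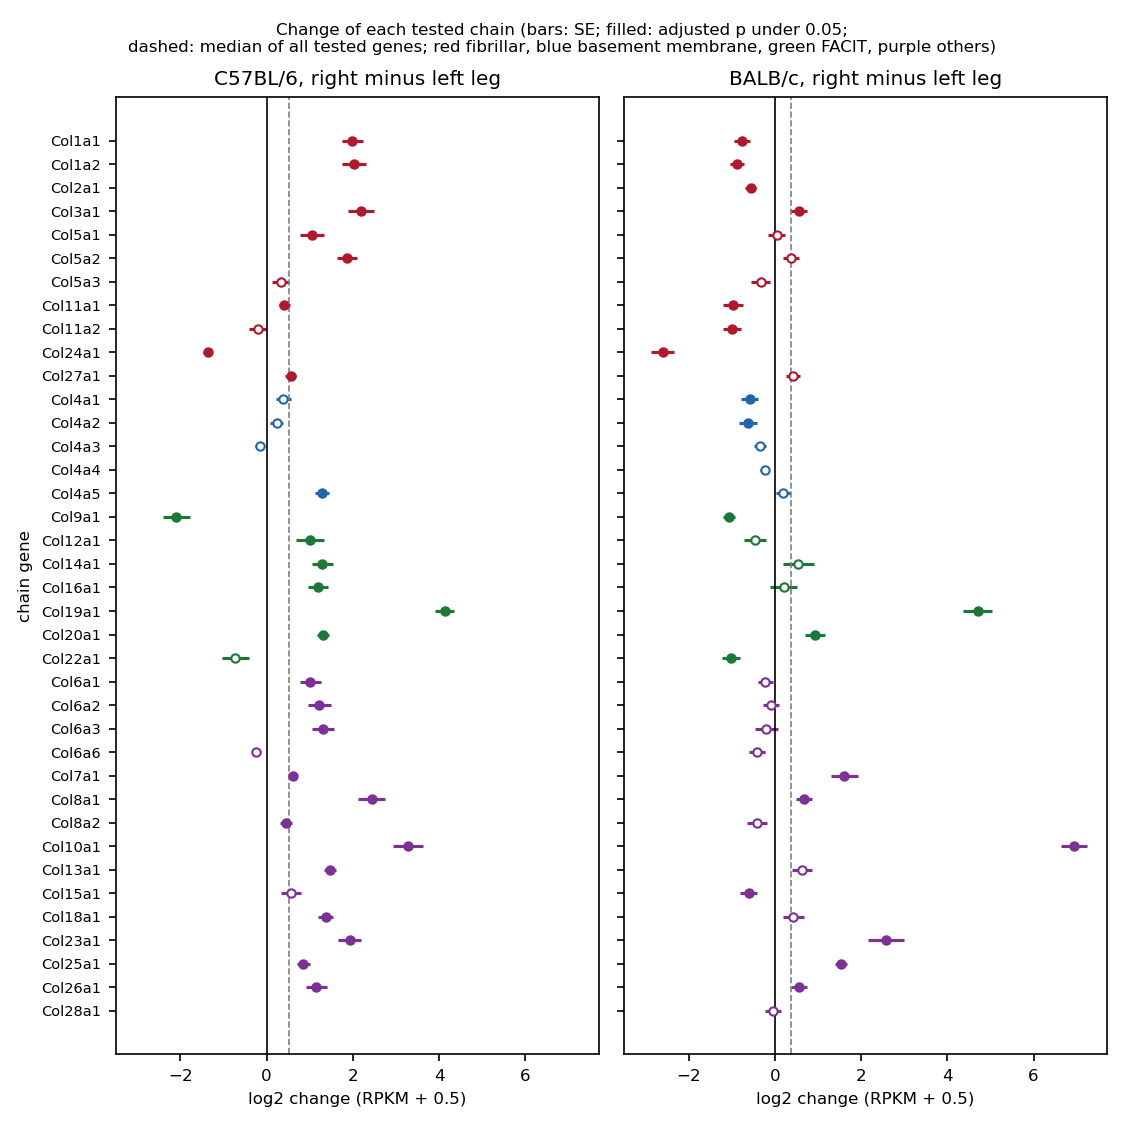
Log2 change of each tested chain, right minus left leg, on the log2(RPKM + 0.5) scale, in C57BL/6 and in BALB/c (points: estimate; bars: SE; filled: called; dashed line: median of all tested genes). Most points lie right of 0 in C57BL/6, where 25 of 35 were called higher, and on both sides in BALB/c, where 9 were called higher and 11 lower.

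Set side by side, 9 chains rose in both strains (Col3a1, Col7a1, Col8a1, Col10a1, Col19a1, Col20a1, Col23a1, Col25a1 and Col26a1), and Col24a1 and Col9a1 fell in both. Among all tested genes 63.6% rose and 8.56% fell in C57BL/6, and 42.5% rose and 7.67% fell in BALB/c. The share of all genes called in both strains was not worked out. Col1a1, Col1a2 and Col11a1 rose in C57BL/6 and fell in BALB/c. A further 13 rose in C57BL/6 and were not called in BALB/c, and 5 fell in BALB/c and were not called in C57BL/6 (Col4a1, Col4a2, Col11a2, Col15a1 and Col22a1). Col5a3, Col4a3 and Col6a6 were called in neither. After rescaling the BALB/c rises of Col3a1, Col8a1, Col20a1 and Col26a1 and the C57BL/6 rises of Col7a1 and Col11a1 were not called. Other calls that rescaling moved are given beside each chain.

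The chains whose change differed between the strains included 6 fibrillar and 2 type VI chains. From the BALB/c change that of C57BL/6 was subtracted, in a single fit over 12 libraries. Of 35 chains tested, 10 were lower and 1 higher, beside 4.33% and 1.76% of all 14165 genes, and the median difference was -0.86 (relative -0.72). The 10 were Col1a1, Col1a2, Col3a1, Col5a2, Col11a1, Col24a1, Col4a5, Col6a1, Col6a2 and Col8a1, and the 1 higher was Col10a1. After rescaling 12 were lower and 2 higher, beside 3.49% and 3.71% of all genes. By class, 6 of 10 fibrillar, 1 of 4 basement membrane and 3 of 14 other chains were lower, and of the 7 FACIT chains 0 were called with limma or limma-voom on values as deposited (3 at an unadjusted p under 0.05), while Col12a1 was called lower after rescaling (-1.57). The differences of Col1a1, Col1a2, Col4a5, Col10a1 and Col11a1 stayed called whichever 1 library was left out, and the other 6 did not. The count of 10 was 4 without left C57BL/6 library 2 or 3 or right C57BL/6 library 3, 5 without left C57BL/6 library 1, right C57BL/6 library 2, left BALB/c library 2 or right BALB/c library 3, 6 without left BALB/c library 3 and 20 without left BALB/c library 1. With right BALB/c library 3 as the only right BALB/c leg it was 3 (Col1a1, Col1a2 and Col4a5). The count of 1 higher was 2 without left C57BL/6 library 3, right C57BL/6 library 2 or left BALB/c library 1, and 3 without right BALB/c library 2.

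**Figure D3:**
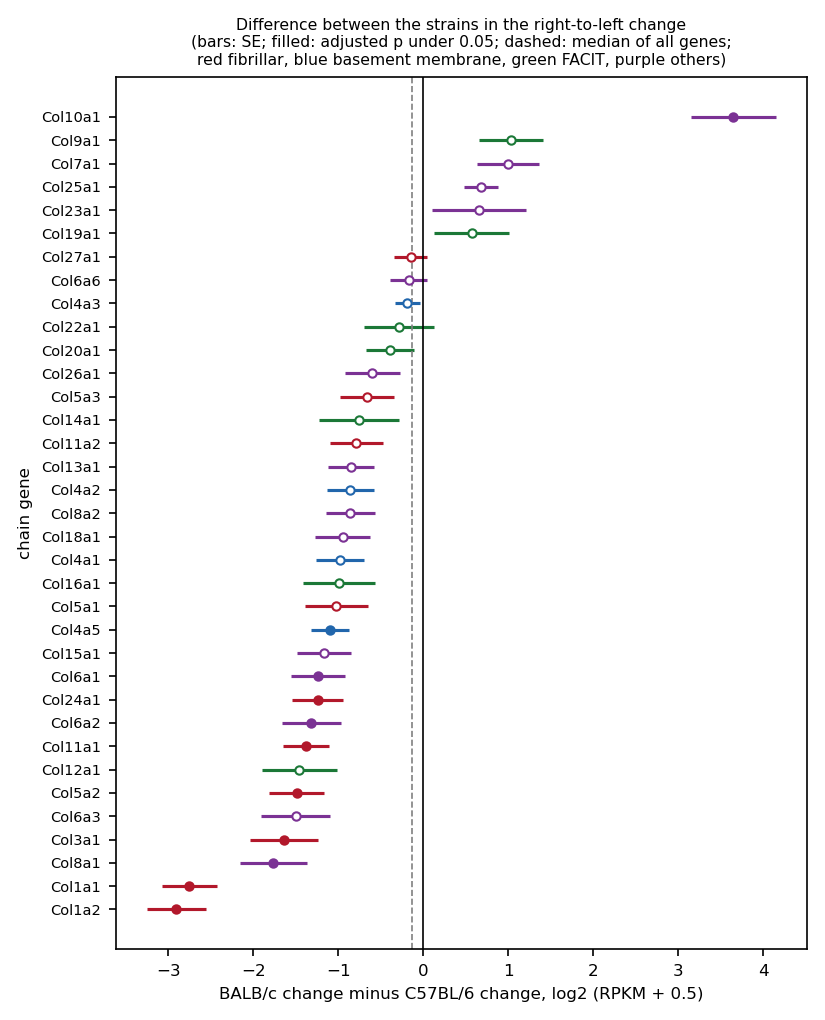
Difference between the strains in the right-to-left change (BALB/c minus C57BL/6) for the 35 chains tested in both, ordered by size, on the log2(RPKM + 0.5) scale (bars: SE; filled: called; dashed line: median of all genes). Col10a1 stands alone on the right at 3.65, and Col1a1 and Col1a2 lie farthest left at -2.75 and -2.90.

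Type I collagen is the most abundant protein of tendon and of scar. Col1a1, the alpha 1 chain (NM_007742, chromosome 11, 94797538 to 94814356), had 27.5, 55.7 and 42.7 RPKM in right and 9.37, 11.7 and 8.55 RPKM in left C57BL/6 legs. All right legs were above all left legs, and it rose (log2 change 1.99 ± 0.24, limma adjusted p = 2.2e-04, relative 1.47). The same gene had 104, 81.9 and 84.0 RPKM in right and 121, 160.0 and 181 RPKM in left BALB/c legs. There every right leg was below every left leg, and it fell (log2 change -0.76 ± 0.19, limma adjusted p = 0.0100, relative -1.14). The difference between strains was -2.75 ± 0.33, limma adjusted p = 0.00225. Col1a2, the alpha 2 chain (NM_007743, chromosome 6, 4455618 to 4491543), had 26.9, 60.5 and 44.1 RPKM in right and 8.83, 12.4 and 8.78 RPKM in left C57BL/6 legs and rose (log2 change 2.02 ± 0.28, limma adjusted p = 4.2e-04). It had 104, 101 and 92.2 RPKM in right and 149.7, 215 and 188 RPKM in left BALB/c legs and fell (log2 change -0.88 ± 0.16, limma adjusted p = 0.00284). No leg overlapped with the other in either strain, and the difference between strains was -2.90 ± 0.35, limma adjusted p = 0.00225. With only right BALB/c library 3, the BALB/c changes of -0.85 for Col1a1 and -0.98 for Col1a2 were as large but not called, while both differences between strains stayed called.

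Col3a1, the chain of type III fibrils of distensible tissue and early repair (NM_009930, chromosome 1, 45368383 to 45406551), rose in both strains. It had 31.1, 81.8 and 56.8 RPKM in right and 11.6, 11.6 and 10.1 RPKM in left C57BL/6 legs (log2 change 2.19 ± 0.31, limma adjusted p = 4.5e-04). In BALB/c the values were 92.9, 89.2 and 72.1 RPKM in right and 44.0, 70.2 and 60.3 RPKM in left BALB/c legs (log2 change 0.56 ± 0.20, limma adjusted p = 0.0448). Right legs were above left legs in both strains without overlap, and the difference between strains was -1.64 ± 0.40, limma adjusted p = 0.0337. The BALB/c rise was close to the shift of all genes (relative 0.18), and after rescaling the change was 0.03 and not called, nor was it with only right BALB/c library 3 (0.33). Its BALB/c call was also lost without left BALB/c libraries 1 or 3 or right BALB/c libraries 1, 2 or 3, each singly (limma adjusted p = 0.0516 to 0.138), and the difference without left C57BL/6 libraries 1, 2 or 3, right C57BL/6 libraries 2 or 3, left BALB/c libraries 2 or 3 or right BALB/c library 3, each singly (limma adjusted p = 0.0644 to 0.0849).

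Type V chains are incorporated into type I fibrils and control their width. Col5a2 (NM_007737, chromosome 1, 45431176 to 45560127) had 4.49, 9.61 and 6.93 RPKM in right and 1.56, 1.54 and 1.35 RPKM in left C57BL/6 legs and rose (log2 change 1.86 ± 0.23, limma adjusted p = 2.5e-04). It had 8.39, 7.97 and 7.58 RPKM in right and 4.44, 7.37 and 6.68 RPKM in left BALB/c legs, and although every right leg was above every left leg it was not called (log2 change 0.37 ± 0.19, limma adjusted p = 0.140). After rescaling that change was -0.11. The difference between strains was -1.49 ± 0.32, limma adjusted p = 0.0226, not called without left C57BL/6 libraries 2 or 3, right C57BL/6 library 3 or left BALB/c libraries 2 or 3, each singly (limma adjusted p = 0.0510 to 0.0626). Col5a1 had 5.21 ± 2.45 RPKM in right and 2.07 ± 0.172 RPKM in left C57BL/6 legs (SD, n = 3) and rose (log2 change 1.06 ± 0.28, limma adjusted p = 0.0104), which was lost after rescaling (log2 change 0.45). In BALB/c it had 6.71 ± 0.897 RPKM in right and 6.58 ± 1.59 RPKM in left BALB/c legs and was not called. Col5a3 was called in neither strain, with log2 changes of 0.33 in C57BL/6 and -0.33 in BALB/c. After rescaling Col5a3 was called lower in BALB/c (-0.82).

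The fibrillar chains of cartilage and bone were low. Col11a1, a chain of type XI fibrils of cartilage (NM_007729, chromosome 3, 113733458 to 113923674), had 0.137, 0.359 and 0.200 RPKM in right and 0.0280, 0.0490 and 0.0560 RPKM in left C57BL/6 legs and rose (log2 change 0.42 ± 0.13, limma adjusted p = 0.0221), below the shift of all genes (relative -0.11) and not called after rescaling (log2 change 0.28) or without left C57BL/6 libraries 1, 2 or 3, each singly (limma adjusted p = 0.0506 to 0.0619). It had 0.566, 0.491 and 0.543 RPKM in right and 0.919, 2.14 and 1.68 RPKM in left BALB/c legs and fell (log2 change -0.96 ± 0.23, limma adjusted p = 0.00920), not called with only right BALB/c library 3 (-0.95). The legs did not overlap in either strain, and the difference between strains was -1.38 ± 0.27, limma adjusted p = 0.0162. With only right BALB/c library 3 that difference was -1.37. Col24a1, known from developing bone (NM_001317733, chromosome 3, 144955436 to 145214975), fell in both strains. It had 0.178, 0.253 and 0.134 RPKM in right and 1.36, 1.30 and 1.14 RPKM in left C57BL/6 legs (log2 change -1.36 ± 0.11, limma adjusted p = 2.8e-05). In BALB/c it had 0.177, 0.108 and 0.0730 RPKM in right and 2.88, 5.19 and 2.25 RPKM in left BALB/c legs (log2 change -2.60 ± 0.26, limma adjusted p = 1.7e-04). Every right leg was below every left leg, and the difference between strains was -1.24 ± 0.30, limma adjusted p = 0.0344, not called without left C57BL/6 libraries 1, 2 or 3, right C57BL/6 libraries 1, 2 or 3 or right BALB/c library 3, each singly (limma adjusted p = 0.0523 to 0.0875). Col11a2 was called lower in BALB/c (-0.99, against -0.20 in C57BL/6), and the difference itself was not called (-0.79 ± 0.31, limma adjusted p = 0.146). With only right BALB/c library 3 its BALB/c change was -0.91 and not called, and after rescaling it was called lower in C57BL/6 too (-0.68). Col27a1, a cartilage fibril chain, was called higher in C57BL/6 (log2 change 0.57 ± 0.13, limma adjusted p = 0.00488) by no more than the shift of all genes (relative 0.04), and not called after rescaling (log2 change 0.27). Its BALB/c change of 0.42 was not called. Col2a1, the chain of cartilage fibrils, passed the filter on low values only in BALB/c, where it fell to 0.171, 0.111 and 0.106 RPKM in right legs, against 0.315, 0.498 and 0.486 RPKM in left legs (log2 change -0.56 ± 0.14, limma adjusted p = 0.00946), not called with only right BALB/c library 3 (-0.62).

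**Figure D4:**
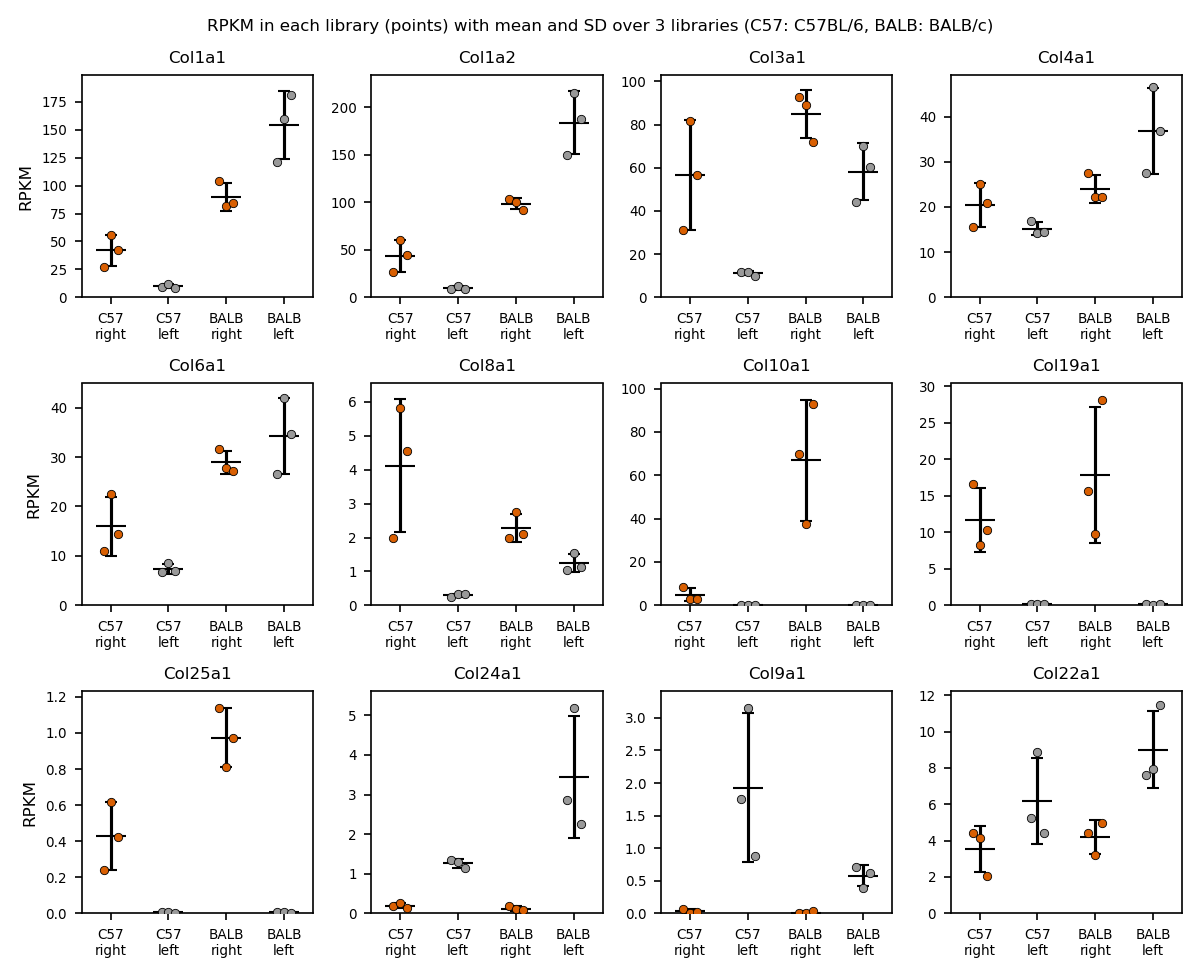
RPKM of 12 collagen chains in each of the 12 libraries (points; orange: right legs, grey: left legs) with mean and SD over 3 libraries, each panel on its own axis from 0. Col1a1 and Col1a2 are higher in right C57BL/6 legs and lower in right BALB/c legs, and Col10a1 and Col25a1 are near 0 in every left leg.

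The main basement membrane chains were not called in C57BL/6 and fell in BALB/c. Col4a1 (NR_133670, chromosome 8, 11198423 to 11312826), which forms the common type IV network with Col4a2, had 15.5, 25.1 and 20.8 RPKM in right and 17.0, 14.3 and 14.4 RPKM in left C57BL/6 legs, which overlapped (log2 change 0.39 ± 0.17, limma adjusted p = 0.0690). Its partner Col4a2 (NM_009932, chromosome 8, 11312805 to 11449287) had 11.5, 17.4 and 14.2 RPKM in right and 12.8, 12.4 and 10.8 RPKM in left C57BL/6 legs (log2 change 0.23 ± 0.15, limma adjusted p = 0.190). After rescaling these changes were negative, at -0.31 for Col4a1, not called, and -0.46 for Col4a2, called lower. In BALB/c Col4a1 had 27.6, 22.3 and 22.2 RPKM in right and 27.5, 46.5 and 36.8 RPKM in left BALB/c legs and fell (log2 change -0.59 ± 0.20, limma adjusted p = 0.0413). Col4a2 had 20.1, 13.5 and 17.0 RPKM in right and 19.7, 31.3 and 28.1 RPKM in left BALB/c legs and fell likewise (log2 change -0.62 ± 0.21, limma adjusted p = 0.0407). Left BALB/c library 1 lay among the right legs and left libraries 2 and 3 were above them for both genes. The BALB/c call of Col4a1 was lost without left BALB/c libraries 2 or 3 or right BALB/c libraries 1, 2 or 3, each singly (limma adjusted p = 0.0513 to 0.129), and that of Col4a2 without left BALB/c libraries 2 or 3 or right BALB/c libraries 2 or 3, each singly (limma adjusted p = 0.0998 to 0.127). With only right BALB/c library 3 the changes were -0.69 and -0.59, not called. The differences between strains were not called (-0.98 ± 0.28, limma adjusted p = 0.0620 for Col4a1 and -0.86 ± 0.28, limma adjusted p = 0.0897 for Col4a2).

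The minor type IV chains form networks of specialised basement membranes such as that of the kidney. Col4a5, on chromosome X (NM_007736, chromosome X, 137909962 to 138123778), had 0.785, 1.48 and 1.09 RPKM in right and 0.135, 0.136 and 0.186 RPKM in left C57BL/6 legs and rose (log2 change 1.29 ± 0.16, limma adjusted p = 2.5e-04). It had 0.681, 0.399 and 0.513 RPKM in right and 0.324, 0.449 and 0.429 RPKM in left BALB/c legs, which overlapped, and was not called (log2 change 0.19 ± 0.15, limma adjusted p = 0.333). After rescaling the BALB/c change was -0.06, not called. The difference between strains was -1.10 ± 0.22, limma adjusted p = 0.0180, and it stayed called with only right BALB/c library 3 (-1.12). Col4a3 was below 0.3 RPKM in every library and was called in neither strain (log2 changes -0.16 in C57BL/6 and -0.34 in BALB/c). Col4a4 passed the filter in BALB/c and was not called there (-0.24). After rescaling both were called lower in BALB/c (Col4a3 -0.47, Col4a4 -0.33). Col4a6 passed in neither strain, with 3 reads in right and 8 in left C57BL/6 legs.

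Among FACIT chains, which sit on the surface of fibrils or in basement membrane zones, Col19a1 changed most. Col19a1 (NM_007733, chromosome 1, 24264522 to 24594276) had 16.6, 8.24 and 10.3 RPKM in right and 0.176, 0.163 and 0.172 RPKM in left C57BL/6 legs and rose (log2 change 4.13 ± 0.23, limma adjusted p = 5.7e-06, relative 3.61). Its values were 15.6, 9.82 and 28.1 RPKM in right and 0.172, 0.0890 and 0.185 RPKM in left BALB/c legs, and it rose there too (log2 change 4.70 ± 0.33, limma adjusted p = 4.9e-05, relative 4.32). On the scale of reads, the ratio of right to left was 68.9 (exact 95% interval 56.7 to 84.8) in C57BL/6 and 120.4 (exact 95% interval 97.4 to 151) in BALB/c, where the intervals cover counting error only. The difference between strains was 0.57 ± 0.45, limma adjusted p = 0.453. Col20a1 (NM_028518, chromosome 2, 180721240 to 180752245) had 2.29, 1.80 and 1.98 RPKM in right and 0.483, 0.386 and 0.691 RPKM in left C57BL/6 legs and rose (log2 change 1.31 ± 0.14, limma adjusted p = 1.1e-04). It had 3.52, 3.18 and 4.92 RPKM in right and 1.39, 2.46 and 1.61 RPKM in left BALB/c legs and rose (log2 change 0.92 ± 0.23, limma adjusted p = 0.0105), which was lost after rescaling (log2 change 0.49) and with only right BALB/c library 3 (1.25). Right legs were above left legs in both strains for both genes.

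Col9a1 and Col22a1 moved the other way. Col9a1, a FACIT chain of cartilage fibrils (NM_001290691, chromosome 1, 24202042 to 24259577), had 0.0680, 0 and 0.0170 RPKM in right and 1.75, 3.15 and 0.884 RPKM in left C57BL/6 legs and fell (log2 change -2.09 ± 0.32, limma adjusted p = 6.4e-04). It had 0, 0 and 0.0340 RPKM in right and 0.716, 0.396 and 0.615 RPKM in left BALB/c legs and fell (log2 change -1.06 ± 0.15, limma adjusted p = 6.8e-04), with 5 reads in all right C57BL/6 legs and 2 in all right BALB/c legs, against 334 and 97 reads in left legs of the same strains. Col22a1, a component of the myotendinous junction where fibres attach to tendon (NM_027174, chromosome 15, 71628906 to 71864657), had 4.42, 4.14 and 2.06 RPKM in right and 5.23, 8.89 and 4.43 RPKM in left C57BL/6 legs, with every right leg below every left leg, and missed the threshold (log2 change -0.73 ± 0.31, limma adjusted p = 0.0700). After rescaling it fell (log2 change -1.37), and limma-voom also called it lower. In BALB/c it had 4.40, 3.19 and 4.99 RPKM in right and 7.62, 7.94 and 11.5 RPKM in left BALB/c legs and fell (log2 change -1.02 ± 0.21, limma adjusted p = 0.00497), not called with only right BALB/c library 3 (-0.77). The difference between strains for Col22a1 was -0.29 ± 0.41, limma adjusted p = 0.699.

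The other fibril-associated chains were called higher in C57BL/6 and not called in BALB/c. Col12a1, Col14a1 and Col16a1, found on fibrils of tendon, fascia and dermis, had C57BL/6 changes of 1.00, 1.30 and 1.19, all called, and BALB/c changes of -0.46, 0.54 and 0.20, which were not called. Col12a1 had 0.211, 1.42 and 0.709 RPKM in right and 0.1, 0.110 and 0.0590 RPKM in left C57BL/6 legs, and its call was lost after rescaling (log2 change 0.75) and without left C57BL/6 libraries 1, 2 or 3 or right C57BL/6 library 3, each singly (limma adjusted p = 0.0579 to 0.0741). Their differences between strains, -1.46, -0.76 and -0.99, were not called. After rescaling Col12a1 was called lower in BALB/c (-0.82) and in the difference (-1.57). Col9a2 and Col9a3, partners of Col9a1, stayed below the filter in both strains, with at most 0.264 RPKM in any library.

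Col10a1, a network collagen known from hypertrophic cartilage of growth plates, had the largest change in BALB/c. In C57BL/6 the change of Col19a1 was larger on the log2(RPKM + 0.5) scale (4.13 against 3.28). In right C57BL/6 legs Col10a1 (NM_009925, chromosome 10, 34109787 to 34116891) had 8.44, 3.05 and 3.12 RPKM, or 870 reads in all, against no read in any left C57BL/6 leg. With the limit for a count of 0 set at 3 reads per library, or 0.0506 to 0.0512 RPKM, it was at least 95.6-fold higher. In right BALB/c legs it had 69.9, 37.5 and 93.1 RPKM, or 11971 reads, against 1 read in each left leg. The ratio of reads was 3854 (exact 95% interval 1318 to 18691, counting error only). On the log2(RPKM + 0.5) scale it rose in both strains, by 3.28 ± 0.34 in C57BL/6 (limma adjusted p = 9.1e-05) and 6.93 ± 0.30 in BALB/c (limma adjusted p = 8.5e-06). The lowest right BALB/c leg, at 37.5 RPKM, was above the highest right C57BL/6 leg, at 8.44 RPKM, a comparison of levels across tables that was not tested. The difference between strains was 3.65 ± 0.50, limma adjusted p = 0.00327. Because left legs of both strains lay near 0, this difference mostly compares right-leg levels across tables that were normalized separately. The C57BL/6 fold change is a lower limit, so a larger fold rise in BALB/c was not shown. On recovered reads with limma-voom the difference was 2.23 and not called, while with pseudocounts of 0.1 and 1 it was 3.59 and 3.53 and called (limma adjusted p over all alternatives 7.7e-04 to 0.514). With only right BALB/c library 3 the difference was 4.22.

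Col10a1 lies on the plus strand inside Nt5dc1, a gene of the minus strand (chromosome 10, 34023415 to 34138357), so reads of the 2 genes cannot be told apart where exons overlap. In the GENCODE annotation of GRCm38, 18 of the 3130 exon bases of Col10a1, or 0.575%, were shared with exons of Nt5dc1. Nt5dc1 had 3.74, 2.61 and 3.30 RPKM in right and 1.50, 1.57 and 1.39 RPKM in left C57BL/6 legs (log2 change 0.89 ± 0.13, limma adjusted p = 5.0e-04). In BALB/c it had 3.82, 2.55 and 3.47 RPKM in right and 1.35, 1.58 and 1.36 RPKM in left legs (log2 change 0.96 ± 0.18, limma adjusted p = 0.00289). After rescaling the C57BL/6 change of Nt5dc1 was 0.31 and not called. The change of Nt5dc1 differed between the strains by 0.06 ± 0.22 (limma adjusted p = 0.889). Intron reads of Nt5dc1 could also fall in Col10a1 exons. The part of Nt5dc1 reads in the Col10a1 counts was not tested.

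Type VI chains, which form the filaments next to the basement membrane, rose in C57BL/6 and were not called in BALB/c. Col6a1 (NM_009933, chromosome 10, 76171537 to 76188789) had 11.1, 22.6 and 14.4 RPKM in right and 6.70, 8.53 and 6.89 RPKM in left C57BL/6 legs and rose (log2 change 1.02 ± 0.24, limma adjusted p = 0.00606), which was lost after rescaling (log2 change 0.33). In BALB/c it had 31.7, 27.8 and 27.3 RPKM in right and 26.5, 41.9 and 34.6 RPKM in left BALB/c legs, which overlapped (log2 change -0.22 ± 0.18, limma adjusted p = 0.334), and after rescaling it fell (log2 change -0.74). Col6a2 (NM_146007, chromosome 10, 76058501 to 76086149) had 11.4, 25.7 and 17.1 RPKM in right and 6.48, 8.05 and 6.66 RPKM in left C57BL/6 legs and rose (log2 change 1.23 ± 0.26, limma adjusted p = 0.00386), likewise lost after rescaling (log2 change 0.54). Its BALB/c values were 32.8, 32.0 and 28.7 RPKM in right and 25.3, 42.3 and 34.0 RPKM in left BALB/c legs (log2 change -0.09 ± 0.19, limma adjusted p = 0.721), and the rescaled change was -0.61, called lower. The differences between strains were -1.24 ± 0.32, limma adjusted p = 0.0427 for Col6a1 and -1.32 ± 0.35, limma adjusted p = 0.0482 for Col6a2. Both differences were not called without left C57BL/6 libraries 1, 2 or 3, right C57BL/6 libraries 2 or 3, left BALB/c libraries 2 or 3 or right BALB/c libraries 1, 2 or 3, each singly (for Col6a1, limma adjusted p = 0.0566 to 0.0983; for Col6a2, 0.0588 to 0.107). After rescaling the difference of Col6a2 was -1.14 and not called, and with only right BALB/c library 3 neither difference was called. Col6a3 rose in C57BL/6 as well (log2 change 1.30 ± 0.25, limma adjusted p = 0.00241), was not called in BALB/c (-0.20), and its difference missed the threshold (-1.50 ± 0.41, limma adjusted p = 0.0511). After rescaling Col6a3 was called lower in BALB/c (-0.69) and in the difference (-1.38). Col6a6, an alternative chain, was called in neither strain (-0.24 in C57BL/6 and -0.41 in BALB/c) but lower in both after rescaling (-0.39 and -0.65 in the same strains), and Col6a4 and Col6a5 were below the filter.

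Type VIII chains form hexagonal networks in vessel walls and membranes beneath endothelium. Col8a1 (NM_007739, chromosome 16, 57624369 to 57754850) had 1.98, 5.82 and 4.56 RPKM in right and 0.238, 0.324 and 0.323 RPKM in left C57BL/6 legs and rose (log2 change 2.44 ± 0.32, limma adjusted p = 3.0e-04, relative 1.91). It had 1.98, 2.76 and 2.11 RPKM in right and 1.04, 1.56 and 1.14 RPKM in left BALB/c legs and rose less (log2 change 0.67 ± 0.19, limma adjusted p = 0.0169), not called after rescaling (log2 change 0.28), with only right BALB/c library 3 (0.59) or without left BALB/c libraries 1 or 3, each singly (limma adjusted p = 0.0613 to 0.0681). All right legs were above all left legs in both strains, and the difference between strains was -1.76 ± 0.39, limma adjusted p = 0.0245, not called without left C57BL/6 libraries 1, 2 or 3, right C57BL/6 libraries 2 or 3, left BALB/c library 2 or right BALB/c library 3, each singly (limma adjusted p = 0.0506 to 0.0677). Col8a2, its partner, rose in C57BL/6 (log2 change 0.44 ± 0.14, limma adjusted p = 0.0213) and was not called in BALB/c (-0.41), and the C57BL/6 call was lost after rescaling (log2 change 0.30) and without left C57BL/6 libraries 1 or 3, each singly (limma adjusted p = 0.0574 to 0.0660). After rescaling it was called lower in BALB/c (-0.73) and in the difference (-1.03).

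Of the 4 membrane-spanning collagens, 3 were tested and all were higher in every right leg than in any left leg of both strains. The same held for 66.2% of all tested genes in C57BL/6 and 48.1% in BALB/c. Col25a1, which is needed for motor axons to enter muscle in mice, was almost absent from left legs, with 2 reads in left legs of each strain. It had 0.242, 0.620 and 0.423 RPKM in right C57BL/6 legs and 1.14, 0.809 and 0.973 RPKM in right BALB/c legs, and rose in both (log2 change 0.86 ± 0.16, limma adjusted p = 0.00168 in C57BL/6, and log2 change 1.54 ± 0.13, limma adjusted p = 1.0e-04 in BALB/c). The ratio of reads was 81.2 (exact 95% interval 22.1 to 676) in C57BL/6 and 180.1 (exact 95% interval 49.5 to 1493) in BALB/c, for counting error only. Col23a1 had 1.49, 3.57 and 2.58 RPKM in right and 0.430, 0.180 and 0.217 RPKM in left C57BL/6 legs (log2 change 1.93 ± 0.26, limma adjusted p = 3.7e-04), and 8.16, 9.29 and 2.69 RPKM in right and 0.311, 0.891 and 0.611 RPKM in left BALB/c legs (log2 change 2.58 ± 0.42, limma adjusted p = 0.00145). Right BALB/c library 3 was the low one for Col23a1, and with it alone the change was 1.56, still called. Col13a1, which mice need for mature neuromuscular junctions, rose in C57BL/6 (log2 change 1.47 ± 0.13, limma adjusted p = 4.9e-05) and just missed the threshold in BALB/c (log2 change 0.62 ± 0.23, limma adjusted p = 0.0505). The differences between strains for these 3 genes were not called, with values of 0.68, 0.66 and -0.85, though after rescaling that of Col25a1 was called higher (0.66). Col17a1, a collagen of hemidesmosomes in skin, was below the filter.

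The remaining chains were mixed. Col7a1, which forms anchoring fibrils beneath epithelia, had 8.62 ± 0.302 RPKM in right and 5.48 ± 0.584 RPKM in left C57BL/6 legs and 17.1 ± 5.08 RPKM in right and 5.34 ± 2.01 RPKM in left BALB/c legs (SD, n = 3 each) and rose in both strains (log2 changes 0.61 and 1.61). The C57BL/6 rise was no more than the shift of all genes (relative 0.09) and was not called after rescaling (log2 change -0.06). The BALB/c rise was not called with only right BALB/c library 3 (1.84). Col15a1 and Col18a1 are proteoglycan-like collagens of basement membrane zones, and Col18a1 is the source of endostatin. Col18a1 rose in C57BL/6 (log2 change 1.37 ± 0.18, limma adjusted p = 3.4e-04) and was not called in BALB/c (0.43). Col15a1 missed the threshold in C57BL/6 (log2 change 0.56 ± 0.23, limma adjusted p = 0.0545) and fell in BALB/c (log2 change -0.60 ± 0.20, limma adjusted p = 0.0337), where every right leg was below every left leg, but was not called without left BALB/c libraries 2 or 3 or right BALB/c libraries 1, 2 or 3, each singly (limma adjusted p = 0.0540 to 0.0966) or with only right BALB/c library 3 (-0.63). Col26a1 rose in both strains (1.16 in C57BL/6 and 0.56 in BALB/c). The BALB/c rise was not called after rescaling (log2 change 0.25), with only right BALB/c library 3 (0.47) or without left BALB/c libraries 1 or 2 or right BALB/c libraries 1 or 3, each singly (limma adjusted p = 0.0769 to 0.132). Col28a1, found around peripheral nerve in mice, passed the filter in BALB/c alone and was not called there (log2 change -0.05 ± 0.19, limma adjusted p = 0.831).

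Ratios of chains within a library do not depend on how the library was scaled, and they were given no test. For the chains of type I, Col1a1 over Col1a2 was 1.02, 0.921 and 0.968 in right and 1.06, 0.944 and 0.974 in left C57BL/6 legs, and 1.01, 0.814 and 0.911 in right and 0.810, 0.744 and 0.964 in left BALB/c legs, overlapping in both strains. Col3a1 over Col1a1 was 0.892, 1.09 and 0.858 in right and 0.363, 0.439 and 0.333 in left BALB/c legs, without overlap. The same ratio was 1.13, 1.47 and 1.33 in right and 1.24, 0.998 and 1.18 in left C57BL/6 legs, which overlapped. Col5a2 over Col5a1 was 1.48, 1.22 and 1.47 in right and 0.716, 0.714 and 0.722 in left C57BL/6 legs, and 1.08, 1.28 and 1.23 in right and 0.896, 0.906 and 1.00 in left BALB/c legs, higher in every right leg of both strains. Col6a2 over Col6a1 averaged 1.12 ± 0.0828 in right and 0.959 ± 0.0137 in left C57BL/6 legs, and 1.08 ± 0.0600 in right and 0.983 ± 0.0269 in left BALB/c legs (SD, n = 3), again without overlap. Col6a3 over Col6a1 averaged 0.326 ± 0.0274 in right and 0.237 ± 0.0191 in left C57BL/6 legs without overlap, and 0.221 ± 0.0116 in right and 0.222 ± 0.0524 in left BALB/c legs, which overlapped. Col4a2 over Col4a1 averaged 0.706 ± 0.0323 in right and 0.791 ± 0.0620 in left C57BL/6 legs, lower in every right leg, and it overlapped in BALB/c (0.700 ± 0.0847 in right and 0.718 ± 0.0445 in left legs).

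**Figure D5:**
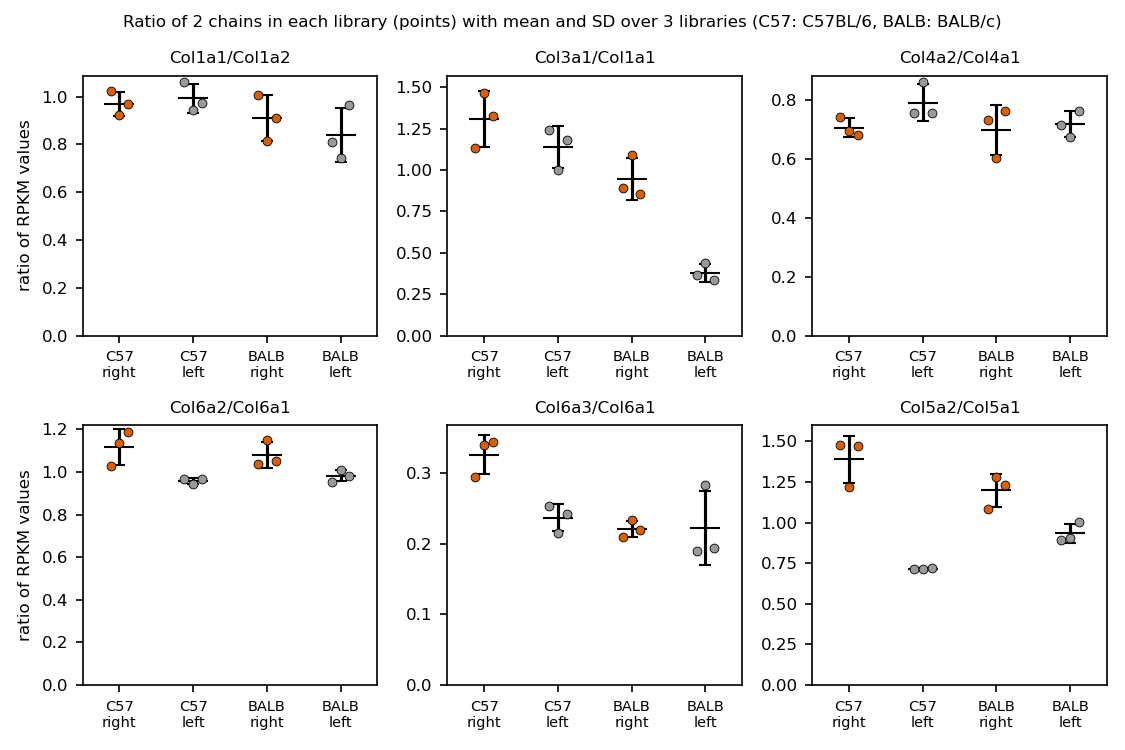
Ratio of the RPKM of 2 chains in each of the 12 libraries (points; orange: right legs, grey: left legs) with mean and SD over 3 libraries, each panel on its own axis from 0. Col3a1/Col1a1 is higher in all right than in all left BALB/c legs, and Col5a2/Col5a1 is higher in the right legs of both strains.

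Several chain genes are neighbours. Col9a1 and Col19a1 end 4944 bases apart on opposite strands of chromosome 1, and in both strains Col9a1 fell while Col19a1 rose. Col3a1 and Col5a2, 24624 bases apart on chromosome 1, had changes of 2.19 and 1.86 in C57BL/6 and of 0.56 and 0.37 in BALB/c. Col4a1 and Col4a2, whose listed spans overlap by 22 bases at the promoter printed above, had changes of 0.39 and 0.23 in C57BL/6 and of -0.59 and -0.62 in BALB/c. Col4a5 and Col4a6, 1342 bases apart on chromosome X, were at 1.12 ± 0.348 and 0.00800 ± 0.0139 RPKM in right C57BL/6 legs (SD, n = 3).

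The counts of the lists that follow are to be read against all tested genes, of which 63.6% rose and 8.56% fell in C57BL/6, and 42.5% rose and 7.67% fell in BALB/c. After rescaling those shares were 28.2% and 26.4% in C57BL/6, and 21.8% and 19.0% in BALB/c. Of 20 genes of collagen folding and modification, all tested, 17 rose in C57BL/6, and 8 rose and 1 fell in BALB/c. After rescaling 7 rose and 3 fell in C57BL/6, and 3 rose and 3 fell in BALB/c. The median change relative to all genes was 0.33 in C57BL/6 and -0.03 in BALB/c. Plod2, a lysyl hydroxylase that prepares stable cross-links, had 1.89, 3.46 and 2.70 RPKM in right and 0.233, 0.221 and 0.190 RPKM in left C57BL/6 legs (log2 change 2.12 ± 0.18, limma adjusted p = 3.5e-05). It had 2.27, 2.56 and 2.44 RPKM in right and 0.272, 0.669 and 0.475 RPKM in left BALB/c legs (log2 change 1.61 ± 0.19, limma adjusted p = 2.8e-04). P3h2, a prolyl hydroxylase, had 1.32, 2.38 and 2.11 RPKM in right and 0.208, 0.243 and 0.225 RPKM in left C57BL/6 legs (log2 change 1.72 ± 0.17, limma adjusted p = 8.1e-05), and its BALB/c change was -0.22 with a difference between strains of -1.94 ± 0.37, limma adjusted p = 0.0147. Ppib, a proline isomerase of the same complex as other collagen chaperones, had 43.5, 59.1 and 48.3 RPKM in right and 21.0, 20.3 and 20.8 RPKM in left BALB/c legs (log2 change 1.25 ± 0.14, limma adjusted p = 2.7e-04). Colgalt2, a collagen galactosyltransferase, was the 1 gene that fell in BALB/c, with 0.657, 0.484 and 0.488 RPKM in right and 0.868, 1.58 and 0.839 RPKM in left BALB/c legs (log2 change -0.59 ± 0.20, limma adjusted p = 0.0420). Its call was lost without left BALB/c library 2 or right BALB/c libraries 1, 2 or 3, each singly (limma adjusted p = 0.0647 to 0.120) and with only right BALB/c library 3 (-0.66).

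The cross-linking enzymes Lox and Loxl1 rose in both strains. Of 14 genes of procollagen cleavage and cross-linking, 8 of 11 tested rose in C57BL/6, and 4 of 12 rose and 1 fell in BALB/c (rescaled: 5 rose and 1 fell in C57BL/6, and 3 rose and 3 fell in BALB/c), with relative medians of 0.37 and -0.18 in the same strains. Lox, the lysyl oxidase that starts cross-linking, had 4.73, 7.33 and 7.39 RPKM in right and 0.909, 0.729 and 0.559 RPKM in left C57BL/6 legs (log2 change 2.49 ± 0.19, limma adjusted p = 2.1e-05). It had 16.6, 11.4 and 21.6 RPKM in right and 2.22, 3.12 and 3.07 RPKM in left BALB/c legs (log2 change 2.33 ± 0.24, limma adjusted p = 1.8e-04). Loxl1, a relative of Lox, had 9.12, 15.8 and 14.3 RPKM in right and 2.11, 2.37 and 1.61 RPKM in left C57BL/6 legs (log2 change 2.40 ± 0.21, limma adjusted p = 4.3e-05), and 16.8, 17.6 and 15.6 RPKM in right and 5.71, 9.86 and 6.19 RPKM in left BALB/c legs (log2 change 1.18 ± 0.20, limma adjusted p = 0.00187), the last not called with only right BALB/c library 3 (1.09). Loxl2, which cross-links type IV collagen, fell in BALB/c, with 3.09, 1.96 and 2.25 RPKM in right and 3.502, 5.40 and 4.50 RPKM in left BALB/c legs (log2 change -0.76 ± 0.21, limma adjusted p = 0.0174). Its call was lost without left BALB/c libraries 2 or 3 or right BALB/c library 3, each singly (limma adjusted p = 0.0583 to 0.0648) and with only right BALB/c library 3 (-0.84). Lox thus rose in right BALB/c legs, where the type I chains fell.

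Of 10 collagen receptor genes, 6 of 8 tested rose in C57BL/6, and 2 of 9 rose and 1 fell in BALB/c (rescaled: 3 rose and 1 fell in C57BL/6, and 2 rose and 1 fell in BALB/c), with relative medians of -0.01 and -0.15. Ddr1, a receptor kinase for collagen, had 12.6, 14.5 and 14.7 RPKM in right and 4.73, 4.14 and 3.58 RPKM in left C57BL/6 legs (log2 change 1.64 ± 0.11, limma adjusted p = 1.4e-05), and 22.7, 13.3 and 25.6 RPKM in right and 5.91, 6.95 and 8.72 RPKM in left BALB/c legs (log2 change 1.42 ± 0.25, limma adjusted p = 0.00234). Itgb1, the shared beta subunit of collagen-binding integrins, had 59.9, 59.5 and 58.6 RPKM in right and 22.2, 20.6 and 19.8 RPKM in left C57BL/6 legs (log2 change 1.49 ± 0.07, limma adjusted p = 2.9e-06), and 67.2, 43.5 and 74.0 RPKM in right and 26.3, 28.8 and 29.1 RPKM in left BALB/c legs (log2 change 1.09 ± 0.20, limma adjusted p = 0.00276). Itga1, an integrin subunit that binds type IV collagen, had 0.525, 0.402 and 0.383 RPKM in right and 0.663, 1.24 and 0.814 RPKM in left BALB/c legs (log2 change -0.57 ± 0.18, limma adjusted p = 0.0314). That call was lost without left BALB/c libraries 2 or 3 or right BALB/c libraries 1, 2 or 3, each singly (limma adjusted p = 0.0513 to 0.0960) and with only right BALB/c library 3 (-0.65).

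Of 10 genes of collagen degradation, inhibitors included, 7 of 8 tested rose and 1 fell in C57BL/6, and 4 of 8 rose in BALB/c (rescaled: 5 rose and 1 fell in C57BL/6, and 3 rose and 1 fell in BALB/c), with relative medians of 0.63 and 0.30. Mmp2, a gelatinase, had 21.9, 25.5 and 21.2 RPKM in right and 4.45, 5.13 and 5.09 RPKM in left C57BL/6 legs (log2 change 2.11 ± 0.10, limma adjusted p = 3.0e-06), and 73.7, 73.1 and 84.3 RPKM in right and 15.8, 25.8 and 24.6 RPKM in left BALB/c legs (log2 change 1.81 ± 0.20, limma adjusted p = 2.2e-04). Timp1, an inhibitor of such proteases, had 20.8, 31.6 and 31.4 RPKM in right and 0.394, 0.266 and 0.265 RPKM in left C57BL/6 legs (log2 change 5.11 ± 0.17, limma adjusted p = 9.6e-07), and 7.84, 23.7 and 14.9 RPKM in right and 0.751, 1.92 and 1.68 RPKM in left BALB/c legs (log2 change 2.96 ± 0.40, limma adjusted p = 6.0e-04). Timp3, another inhibitor, fell in C57BL/6, with 10.1, 12.1 and 11.4 RPKM in right and 18.6, 21.4 and 17.8 RPKM in left C57BL/6 legs (log2 change -0.76 ± 0.10, limma adjusted p = 3.3e-04).

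Markers of other cell types moved with the legs, and their part in the collagen results was not tested. Of all genes 63.6% rose in C57BL/6 and 42.5% in BALB/c (28.2% and 21.8% after rescaling). All 14 fibroblast and progenitor markers rose in C57BL/6 and 8 rose in BALB/c (rescaled: 7 rose, and 2 rose and 1 fell), with summed levels of 367 to 624 RPKM in right and 133 to 249.8 RPKM in left C57BL/6 legs, and 1037 to 1187 RPKM in right and 639 to 983 RPKM in left BALB/c legs. Postn, a matrix protein of activated fibroblasts, had 15.8, 64.3 and 42.4 RPKM in right and 0.526, 0.395 and 0.649 RPKM in left C57BL/6 legs (log2 change 5.13 ± 0.45, limma adjusted p = 4.2e-05), and 19.3, 29.3 and 15.9 RPKM in right and 2.61, 8.21 and 7.98 RPKM in left BALB/c legs (log2 change 1.80 ± 0.41, limma adjusted p = 0.00699), the last not called with only right BALB/c library 3 (1.43). Pi16, a marker of a fibroblast subset, had 13.0, 31.0 and 20.004 RPKM in right and 1.72, 2.58 and 2.54 RPKM in left C57BL/6 legs (log2 change 2.90 ± 0.29, limma adjusted p = 8.3e-05), and 47.7, 68.2 and 30.3 RPKM in right and 9.44, 31.5 and 14.8 RPKM in left BALB/c legs (log2 change 1.46 ± 0.44, limma adjusted p = 0.0237), where the call was lost after rescaling (log2 change 0.95), with only right BALB/c library 3 (0.86) and without left BALB/c libraries 1 or 3 or right BALB/c libraries 1 or 2, each singly (limma adjusted p = 0.0753 to 0.0914). Of 12 tendon and cartilage markers, 7 of 9 tested rose in C57BL/6, and 2 rose and 1 fell in BALB/c (rescaled: 4 rose in C57BL/6, and 2 rose and 5 fell in BALB/c). Their sums were 108 to 285 RPKM in right and 15.97 to 25.4 RPKM in left C57BL/6 legs, and 249 to 282 RPKM in right and 161 to 313 RPKM in left BALB/c legs. Scx, a transcription factor of tendon cells, had 71.2, 122 and 102 RPKM in right and 4.004, 3.91 and 3.85 RPKM in left C57BL/6 legs (log2 change 4.45 ± 0.18, limma adjusted p = 2.0e-06), and 41.0, 74.6 and 74.9 RPKM in right and 4.02, 5.85 and 7.46 RPKM in left BALB/c legs (log2 change 3.34 ± 0.29, limma adjusted p = 9.0e-05). Thbs4, a matrix protein of tendon and muscle, had 24.9, 109 and 75.5 RPKM in right and 8.31, 7.45 and 6.90 RPKM in left C57BL/6 legs (log2 change 2.89 ± 0.48, limma adjusted p = 0.00103). Sox9, which drives cartilage genes, had 0.917, 1.65 and 2.22 RPKM in right and 0.212, 0.719 and 0.455 RPKM in left BALB/c legs (log2 change 1.11 ± 0.28, limma adjusted p = 0.0124), not called without right BALB/c library 3 (limma adjusted p = 0.0503). Fmod, a proteoglycan of tendon, had 75.5, 48.2 and 57.8 RPKM in right and 78.9, 142 and 116 RPKM in left BALB/c legs (log2 change -0.87 ± 0.25, limma adjusted p = 0.0192), not called without left BALB/c libraries 2 or 3 or right BALB/c libraries 2 or 3, each singly (limma adjusted p = 0.0619 to 0.0680) or with only right BALB/c library 3 (-0.91). The cartilage markers Acan, Hapln1 and Matn1 were at 0 in all right BALB/c legs and in all left C57BL/6 legs. Matn1 was also at 0 in all left BALB/c legs, and Sox9 of the same list rose in right BALB/c legs.

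All 12 macrophage markers rose in C57BL/6 and 8 rose in BALB/c (rescaled: 12 and 6), with relative medians of 1.35 and 0.54, with sums of 93.2 to 186 RPKM in right and 9.88 to 13.5 RPKM in left C57BL/6 legs, and 189 to 303 RPKM in right and 63.9 to 108 RPKM in left BALB/c legs. Of 9 tested Schwann cell markers, 2 rose in C57BL/6, and 2 rose and 3 fell in BALB/c, with sums of 19.0 to 71.8 RPKM in right and 6.71 to 195 RPKM in left C57BL/6 legs, and 36.1 to 59.5 RPKM in right and 47.9 to 166 RPKM in left BALB/c legs. Left C57BL/6 library 1 and left BALB/c library 2 were the high ones. Of 10 endothelial markers, 3 fell in C57BL/6, and 1 rose and 2 fell in BALB/c (rescaled: 9 fell in C57BL/6 and 8 in BALB/c, beside 26.4% and 19.0% of all genes), with sums of 52.0 to 67.1 RPKM in right and 55.0 to 66.9 RPKM in left C57BL/6 legs, and 69.7 to 110 RPKM in right and 91.5 to 132 RPKM in left BALB/c legs. Of 9 smooth muscle and pericyte markers, 1 rose in C57BL/6 and 1 fell in BALB/c (rescaled: 6 fell in C57BL/6 and 4 in BALB/c). Of the adipocyte and erythroid markers 0 were called in either strain with limma or with limma-voom, and 0 had an unadjusted p under 0.05. The median change of the erythroid markers was still 2.46 in BALB/c, against 0.27 in C57BL/6. Their sums spread from 532 to 34040 RPKM among right BALB/c legs, so the lack of calls does not show equal blood in the legs. Of 8 muscle fibre markers, 2 rose and 6 fell in C57BL/6, and 2 rose and 4 fell in BALB/c. Right C57BL/6 library 1 was the lowest right C57BL/6 leg for the summed collagen, fibroblast, tendon and macrophage levels alike.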

How the data were processed

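Polyadenylated RNA of 12 libraries was measured, 3 in each of 4 groups. The authors deposited RPKM values in 1 table per strain; per the file headers they were counted with HOMER over exons on both strands of mm9 transcripts, with 1 transcript kept per gene (the columns are headed FPKM, the command asks for RPKM). HISAT2, HOMER and DESeq2 and the builds GRCm38 and mm10 are named in the submitters' processing notes, without versions or roles. The transcript listed for Col17a1 differs between the tables. The last column of each BALB/c leg carries another number than its title and was matched through the sample's description.

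Genes averaging 0.1 RPKM or more were tested with limma 3.58.1 in R 4.3.3 (trend, two-sided, Benjamini-Hochberg adjustment over all tested genes) on log2(RPKM + 0.5), in each strain and, for the difference, over all 12 libraries. Between 99.7% and 99.8% of values, zeros included, came out as whole reads within a tolerance of 0.1 once the library totals were worked out from the steps of low values, and limma-voom on these reads was an alternative. Others were pseudocounts of 0.1 and 1, no filter or one of 1 RPKM, median-of-ratios rescaling, the replicate number as a block, a spread shared over 12 libraries and leaving out each library. The fit with BALB/c right library 3 alone was chosen after seeing the data.

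The code was tested on simulated data, whose spread and pass rule were revised after a first run at a wider spread missed most of the smaller differences. Members, classes and gene lists were chosen with earlier results of these data known. Library values are given for the 3 highest chains of each class, Col10a1, chains called in the difference or in opposite directions, and the 2 largest rises and falls per strain, 17 chains in all. Of each other list up to 2 called genes per direction and strain were eligible, and Nt5dc1 was added for its overlap with Col10a1. Exact intervals and limits for a count of 0 cover counting error only. Levels between strains were not tested.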

Additional observations from a re-analysis of the deposited data

Results flagged for a closer look

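The change between right and left legs was tested between the strains with limma over 12 libraries, as BALB/c minus C57BL/6. Of 35 chains tested it differed for 11, with 10 lower and 1 higher, beside 4.33% and 1.76% of all 14165 genes. Of the 10 fibrillar chains tested, 6 were lower by this measure and 4 were not called. Log2 differences of the 6 were -2.75 for Col1a1, -2.90 for Col1a2, -1.64 for Col3a1, -1.49 for Col5a2, -1.38 for Col11a1 and -1.24 for Col24a1. Col1a1, Col1a2 and Col11a1 fell in BALB/c and rose in C57BL/6, and Col24a1 fell in both. The C57BL/6 rise of Col11a1 was 0.42, below the median change of all tested genes (0.52), and it was not called after rescaling (0.28). The basement membrane chain Col4a5 differed by -1.10, the type VI chains Col6a1 and Col6a2 by -1.24 and -1.32, and the network chain Col8a1 by -1.76. Of the 35 chains 6 had a positive difference, and Col10a1 was the 1 called higher, at 3.65. With limma-voom on recovered reads its difference was 2.23 and not called. Left legs of both strains lay near 0 for Col10a1, so its difference mostly compares right-leg levels across tables that were normalized separately. Of the 11 differences, those of Col1a1, Col1a2, Col4a5, Col10a1 and Col11a1 stayed called whichever 1 library was left out. Col11a1 did not stay called in every other fit. With right BALB/c library 3 as the only right BALB/c leg its difference was -1.37.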

How the results depend on the processing

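Precision is limited by 3 libraries per leg and by low values, since 9 of the 44 chains in C57BL/6 and 6 in BALB/c were below the filter and not tested. Calls that were close to the threshold depended on single libraries, as named beside each chain in the report. Under rescaling the median change of the chains was 0.69 in C57BL/6 and -0.46 in BALB/c, 6 chains were lower in C57BL/6, 5 were higher and 20 lower in BALB/c, and 2 were higher in the difference. Rescaling shifts all genes together, and it turned the sign in C57BL/6 of Col5a3 (-0.31), Col4a1 (-0.31), Col4a2 (-0.46), Col7a1 (-0.057) and Col15a1 (-0.10), and in BALB/c of Col5a1 (-0.44), Col5a2 (-0.11), Col4a5 (-0.062), Col16a1 (-0.22) and Col18a1 (-0.018). With a pseudocount of 0.1 the median was 1.47 in C57BL/6 and -1.23 for the difference, and with no filter it was 0.59 in C57BL/6, where more low genes are tested. With a filter of 1 RPKM, 0 of 23 chains were lower in C57BL/6 with limma (1 at an unadjusted p under 0.05, and 4 with limma-voom on all chains tested), since Col9a1 and Col24a1 lie below it. On recovered reads with limma-voom the medians were 1.94 in C57BL/6 and -1.24 for the difference, 4 chains were lower in C57BL/6, and 0 were higher in the difference (1 at an unadjusted p under 0.05, against 1 called with limma). There Col6a6 turned sign (0.21), and the cause was not tested. With BALB/c right library 3 alone, a fit with fewer samples, 4 chains were higher and 2 lower in BALB/c and 3 lower in the difference, and the sign turned for Col5a1 in BALB/c (-0.066) and for Col27a1 (0.0075) and Col23a1 (-0.36) in the difference.

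Leaving out 1 library at a time gave 22 to 28 chains higher, 2 to 3 lower and a median of 0.74 to 1.24 in C57BL/6, and 6 to 9 higher, 8 to 12 lower and a median of -0.27 to 0.075 in BALB/c. For the difference it gave 1 to 3 higher, 4 to 20 lower and a median of -1.07 to -0.71. In BALB/c the change ranged from -0.13 to 0.20 for Col5a1, -0.16 to 0.46 for Col16a1, -0.28 to 0.084 for Col6a2, -0.46 to 0.12 for Col6a3 and -0.20 to 0.067 for Col28a1, and the difference of Nt5dc1 from -0.063 to 0.21. The cause of these shifts was not tested.

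With the replicate number as a block, 26 chains were higher and 3 lower in C57BL/6, 7 higher and 8 lower in BALB/c, and 2 higher and 10 lower in the difference. It made the calls of Col22a1 and Col15a1 in C57BL/6 and of Col7a1 in the difference, and ended those of Col3a1, Col4a1, Col4a2, Col15a1 and Col26a1 in BALB/c. Deviations of legs with the same number correlated by 0.007 to 0.18 in C57BL/6 and 0.01 to 0.24 in BALB/c. Those with different numbers correlated by -0.166 to 0.098 in C57BL/6 and -0.192 to 0.111 in BALB/c. Not every library correlated best with its own number, so the replicate block was not taken as a pairing. Whether legs with the same number came from 1 mouse was not settled.

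Besides rescaling and the fits with fewer libraries, which are given beside each chain, other settings moved these calls. With no filter the BALB/c calls of Col3a1, Col4a1, Col4a2 and Col26a1 and the differences of Col6a1 and Col6a2 were lost, and Col6a6 in C57BL/6 and Col4a3 and Col4a4 in BALB/c were called. With the spread shared over 12 libraries Col11a1, Col7a1 and Col8a2 in C57BL/6 and Col3a1, Col8a1 and Col26a1 in BALB/c were not called, and Col22a1 and Col15a1 in C57BL/6 and Col27a1, Col4a3, Col6a6 and Col13a1 in BALB/c were. With limma-voom the differences of Col24a1 and Col10a1 were not called, and calls were made for Col4a1, Col22a1, Col6a6 and Col15a1 in C57BL/6, Col27a1, Col4a3, Col4a4 and Col13a1 in BALB/c, and Col6a3, Col8a2 and Col15a1 in the difference. A pseudocount of 0.1 made the differences of Col12a1, Col6a3 and Col8a2 called, a pseudocount of 1 lost that of Col6a2 and made Col13a1 called in BALB/c, and a filter of 1 RPKM made Col15a1 called in C57BL/6 and in the difference, and Col6a3 in the difference. The causes were not tested.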
